A study of Mus musculus with 8 samples.

Results

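Cultures of dermal fibroblasts can hold RNA of the blood vessel cells that lie beside them in skin, and 10 genes used to recognise endothelial cells were followed library by library. The genes are the adhesion molecule *Pecam1* (which encodes CD31), the tight junction protein *Cldn5*, the surface sialomucin *Emcn*, the receptor tyrosine kinases *Kdr*, *Flt1*, *Tie1* and *Tek*, the nitric oxide synthase *Nos3*, the transcription factor *Sox18* and the secreted protein *Egfl7*. They were chosen by name as known markers, but with earlier results of these data known, so that they are not an independent set. All 10 were found among the 15111 genes of the deposited table. The comparison was between adult, tamoxifen-fed *Tgfb1*fl/fl mice without Cre (control, 4 libraries) and tamoxifen-fed *Tgfb1*fl/fl:*Col1a2*-CreERT mice (TGFβ1FKO, 4 libraries). Both groups therefore carried floxed *Tgfb1* alleles and received tamoxifen, and only TGFβ1FKO mice carried the inducible Cre, which a *Col1a2* promoter and enhancer direct to fibroblasts. Cells were released enzymatically from back skin with its epidermis, grown in serum, and then kept for 72 h in serum replacement medium on fibronectin. The methods describe no sort of these cultured cells by endothelial markers. Neither the labels nor the methods say whether each library came from a separate mouse, so that p-values measure the spread between these libraries, which may be technical.

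Endothelial cells line blood and lymphatic vessels. They respond to vascular endothelial growth factors through KDR and FLT1 and to angiopoietins through TEK, whose relative TIE1 modulates it, and they hold to each other through junction proteins such as CD31, VE-cadherin and claudin-5. In skin, fibroblasts surround the vessels and produce several of the ligands that endothelial receptors bind.

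The libraries held between 16988998 and 23071528 reads on the listed genes, and values are given as normalised counts (reads scaled by one factor per library). *Tgfb1* ranged from 1298 to 1482 normalised counts in control and from 228.4 to 326.4 in TGFβ1FKO libraries, so that the labels fitted the deletion. All 10 fibroblast markers looked for (among them *Col1a1*, *Pdgfra* and *Dcn*) were in the table, with a summed count of 1593173 to 1939990 in control and 1659420 to 1785093 in TGFβ1FKO libraries. None was called, and *Postn* had an unadjusted p of 0.00966 in limma (log2 fold change -0.36). Together the 10 endothelial markers came to between 30.9 and 51.3 CPM of these reads. Per kilobase of exon, *Pecam1* stood at 0.00609% of the level of *Col1a1*. The cultures were thus fibroblast cultures by their markers, and the endothelial markers were present at low levels, with reads in all libraries except for *Sox18*, which had 0 reads in control replicate 4.

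None of the 10 markers was called between the genotypes, and each of them had a log2 fold change below 0 (TGFβ1FKO minus control), a direction that 3 of them (*Kdr*, *Flt1* and *Emcn*) lost when single libraries were left out. A gene was called when its log2 fold change passed 0.6 in either direction at a Benjamini-Hochberg adjusted p under 0.05. The p came from limma's moderated test on log2(normalised count + 1). By this rule 0.086% of all genes were called and 0.0794% were called lower. Adjusted p-values of the 10 markers in limma lay between 0.587 and 0.953. For genes with few reads the change on this scale was smaller (*Sox18*, -0.59 against -1.16) or larger (*Cldn5*, -1.24 against -1.07) than in edgeR. An unadjusted p under 0.05 was reached by *Pecam1* and *Cldn5*, 2 of 10, beside 3.87% of all genes that were lower with such a p. In edgeR's and in DESeq2's test on recovered reads, 0 markers were called and 1, *Pecam1*, had an unadjusted p under 0.05. The groups overlapped in all 10 markers. Over all genes they did not overlap in 3.79%, a share so small that 0 of 10 does not set the markers apart. The 10 log2 fold changes had a median of -0.43 against 0.0031 over all genes, of which 49.1% were below 0. The median of the markers was -0.16 without control replicate 2, -0.26 without TGFβ1FKO replicate 3 and -0.72 without TGFβ1FKO replicate 2, and over the 5 markers with at least 10 reads in every library it was -0.17. The markers were measured in the same 8 libraries, so that their shared direction is not 10 separate observations. In RNA from whole cultures, fewer endothelial cells, less RNA of these genes per cell and RNA of these genes from other cells cannot be told apart.

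**Figure D1:**
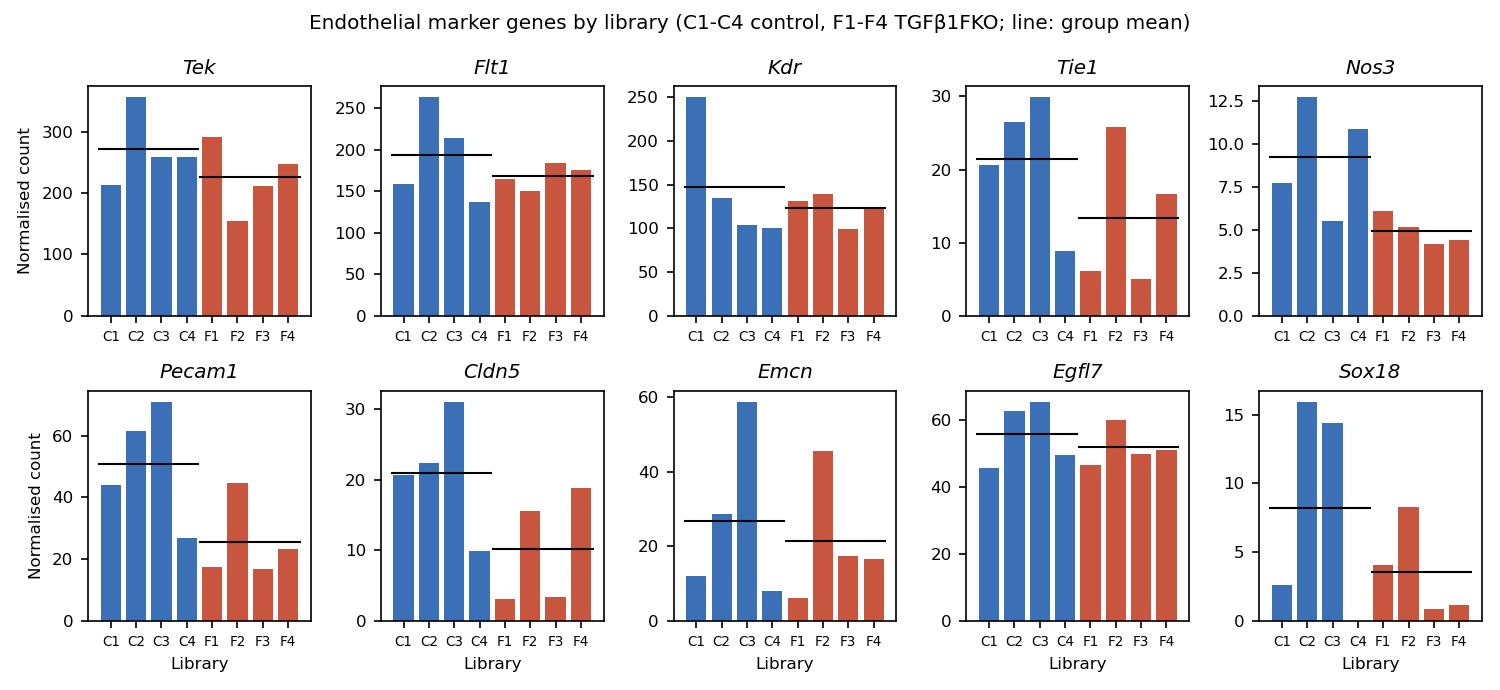
Normalised counts of the 10 endothelial markers (vertical axes, which start at 0 and differ between genes) in each of the 4 control (C1 to C4, blue) and 4 TGFβ1FKO (F1 to F4, red) libraries, with horizontal lines at the group means. All markers but *Kdr*, 9 of 10, reach their highest level in C2 or C3, and the groups overlap for every gene.

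The receptors for vascular endothelial growth factors were among the more abundant markers. *Kdr*, which encodes the main signalling receptor for VEGF-A (ENSMUSG00000062960, chromosome 5 of GRCm38, 75932827 to 75978458), had 250.3, 134.9, 104.2 and 100.7 normalised counts in control replicates 1 to 4. In TGFβ1FKO replicates 1 to 4 it had 131.8, 138.8, 99.6 and 121.9. A single control culture, replicate 1, was therefore far above the other 7 libraries, which lay close together. The log2 fold change of *Kdr* was -0.17 with a 95% interval of -0.69 to 0.36 (adjusted p = 0.908, limma), and without control replicate 1 it turned to 0.12.

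*Flt1*, the other receptor, which binds VEGF-A, VEGF-B and PlGF and can act as a decoy (ENSMUSG00000029648, chromosome 5, 147561604 to 147726011), had 159.2, 263.5, 214.0 and 137.3 normalised counts in control replicates 1 to 4. The TGFβ1FKO libraries had 164.2, 150.2, 184.3 and 175.1. The 4 TGFβ1FKO cultures lay inside the range of the controls, of which replicates 2 and 3 were the highest. The log2 fold change was -0.16 with an interval of -0.54 to 0.22 (adjusted p = 0.871, limma), and it was 0.0062 without control replicate 2.

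The pair of Tie receptors behaved unlike each other. *Tek*, which encodes the angiopoietin receptor TIE2 (ENSMUSG00000006386, chromosome 4, 94739289 to 94874976), was the most abundant marker, with 213.3, 357.0, 258.4 and 259.7 normalised counts in control replicates 1 to 4. It had 291.9, 154.3, 210.9 and 248.2 in TGFβ1FKO replicates 1 to 4. *Tek* was thus highest in control replicate 2 and lowest in TGFβ1FKO replicate 2, and its log2 fold change was -0.28 with an interval of -0.69 to 0.13 (adjusted p = 0.761, limma). *Tie1*, the orphan relative of TIE2 (ENSMUSG00000033191, chromosome 4, 118471191 to 118490061), had 20.6, 26.6, 29.9 and 8.89 normalised counts in control replicates 1 to 4. In the TGFβ1FKO libraries it had 6.08, 25.9, 4.98 and 16.6. The culture with the lowest *Tek*, TGFβ1FKO replicate 2, had the highest *Tie1* of its group, and *Tie1* differed 6.01-fold between its highest and lowest library against 2.31-fold for *Tek*. Between the genotypes, *Tie1* had a log2 fold change of -0.80 with an interval of -1.89 to 0.30 (adjusted p = 0.737, limma).

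The proteins of the endothelial surface and junctions included the 2 markers with the smallest p-values, *Pecam1* and *Cldn5*, and both overlapped between the genotypes. *Pecam1* (ENSMUSG00000020717, chromosome 11, 106654217 to 106750628) had 43.9, 61.6, 71.0 and 26.7 normalised counts in control replicates 1 to 4. It had 17.2, 44.5, 16.6 and 23.3 in TGFβ1FKO replicates 1 to 4. TGFβ1FKO replicate 2 lay above control replicates 1 and 4, and the other 3 TGFβ1FKO cultures lay below all controls. The mean was 50.8 ± 19.6 in control against 25.4 ± 13.1 in TGFβ1FKO (SD, n = 4 each), and the difference was not called (log2 fold change -0.99, interval -1.76 to -0.23, unadjusted p = 0.0149 and adjusted p = 0.587 in limma). The two-sided exact permutation test on the 8 normalised counts of *Pecam1* gave p = 0.0857, where 4 libraries against 4 allow no p below 0.0286.

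*Cldn5* (ENSMUSG00000041378, chromosome 16, 18776847 to 18778262) had 20.6, 22.3, 31.0 and 9.88 normalised counts in control replicates 1 to 4 and 3.04, 15.5, 3.32 and 18.8 in TGFβ1FKO replicates 1 to 4. A pair of TGFβ1FKO cultures, replicates 1 and 3, held only 3 and 4 reads, whereas replicates 2 and 4 were above control replicate 4. The log2 fold change was -1.24 with an interval of -2.42 to -0.046 (unadjusted p = 0.0429 and adjusted p = 0.657, limma). The exact permutation test gave p = 0.143.

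*Emcn*, which is strongest in veins and capillaries (ENSMUSG00000054690, chromosome 3, 137341067 to 137432185), had 12.0, 28.7, 58.8 and 7.90 normalised counts in control replicates 1 to 4. It had 6.08, 45.6, 17.4 and 16.6 in TGFβ1FKO replicates 1 to 4. Control replicate 3 and TGFβ1FKO replicate 2 stood above the rest, and the lowest culture of each genotype had a similar level. The log2 fold change of *Emcn* was -0.24 with an interval of -1.57 to 1.095 (adjusted p = 0.953, limma). It turned to 0.26 without control replicate 3 and to 0.22 without TGFβ1FKO replicate 1.

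Of the remaining markers, *Sox18*, a transcription factor of vessel and lymphatic development (ENSMUSG00000046470, chromosome 2, 181669836 to 181671640), had 2.58, 15.9, 14.4 and 0 normalised counts in control and 4.05, 8.29, 0.830 and 1.11 in TGFβ1FKO replicates 1 to 4. Control replicates 2 and 3 and TGFβ1FKO replicate 2 were again the highest. The 0 in control replicate 4 allows up to 2.96 normalised counts (3 reads, a limit for counting error alone, because copies made by PCR are not separate molecules). *Sox18* had 45 reads in all, too few for a narrow estimate (log2 fold change -0.59, interval -2.49 to 1.31, adjusted p = 0.910, limma). With single libraries left out the log2 fold change of *Sox18* ranged from -0.054 (without control replicate 2) to -1.41 (without control replicate 4), and it was -1.16 in edgeR's and -1.20 in DESeq2's test.

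*Nos3*, which makes the vasodilator nitric oxide (ENSMUSG00000028978, chromosome 5, 24364810 to 24384474), had 7.74, 12.8, 5.54 and 10.9 normalised counts in control replicates 1 to 4. The TGFβ1FKO libraries had 6.08, 5.18, 4.15 and 4.43. TGFβ1FKO replicate 1 lay above control replicate 3, and otherwise the TGFβ1FKO cultures were below the controls (log2 fold change -0.73, interval -1.56 to 0.093, adjusted p = 0.697, limma). Its exact permutation p of 0.0571 rested on 4 to 12 reads per library. Exons of *Nos3* share bases with *Atg9b* and *Gm15587* on the other strand, from which reads cannot be told apart in these non-directional libraries.

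*Egfl7*, a secreted protein of the vessel wall whose gene also holds the endothelial microRNA miR-126 (ENSMUSG00000026921, chromosome 2, 26580014 to 26593120), was the steadiest marker. It had 45.6, 62.7, 65.4 and 49.4 normalised counts in control and 46.6, 60.1, 49.8 and 51.0 in TGFβ1FKO replicates 1 to 4. The highest library was 1.43-fold above the lowest, and the log2 fold change was -0.093 with an interval of -0.48 to 0.30 (adjusted p = 0.932, limma). *Egfl7* shares exon bases with *Agpat2* on the other strand and with *Gm20532*, and *Agpat2* had 412.9 normalised counts in control and 417.9 in TGFβ1FKO libraries.

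**Figure D2:**
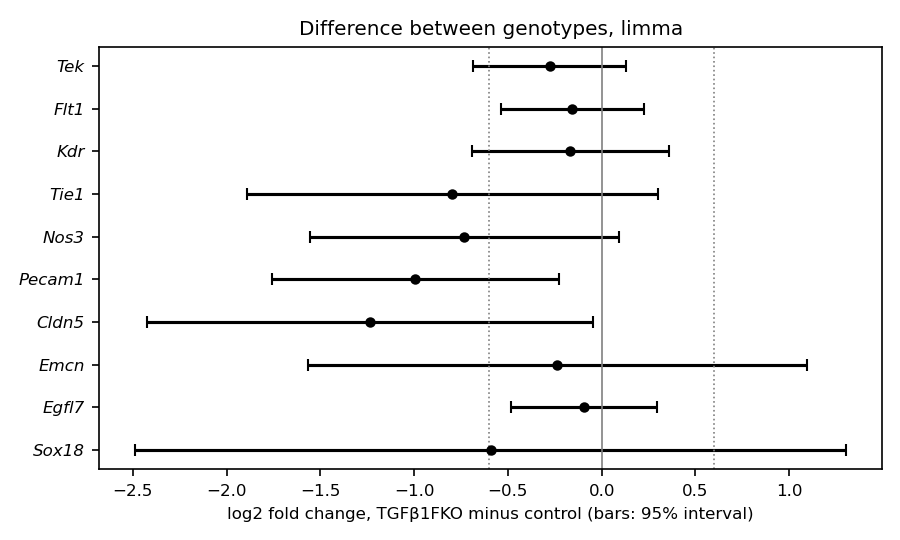
Log2 fold change of each marker, TGFβ1FKO minus control, in limma's test (points) with 95% intervals (bars), with dotted lines at the call limit of 0.6 in either direction. All 10 points lie below 0 and 8 of the 10 intervals include 0, those of *Pecam1* and *Cldn5* being the exceptions.

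Levels of different genes were compared per kilobase of exon. In control libraries *Tek* was highest with 57.7 normalised counts per kilobase, followed by *Kdr* (16.3), *Egfl7* (15.6), *Cldn5* (14.8) and *Flt1* (14.3), then by *Pecam1* (8.15), *Sox18* (5.08), *Emcn* (4.96), *Tie1* (4.37) and *Nos3* (2.23). The lowest library of *Tek*, at 32.7 per kilobase, was above the highest library of any other marker, 27.7 for *Kdr*. Read within libraries, *Flt1* was above *Pecam1* and *Pecam1* above *Sox18* in 8 of 8, although the ranges of these pairs overlapped. The other neighbours in this order changed places between libraries, the first of each pair being the higher in 2 to 6 of 8. In TGFβ1FKO libraries *Tek* was again first, with 48.0 per kilobase, and *Nos3* last, with 1.20.

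Whether a marker differed between cultures of the same genotype was read from its coefficient of variation beside the one that counting reads alone would give. The observed value was over 1.5 times the counting value in both groups for 7 of 10 markers, *Flt1*, *Egfl7* and *Nos3* being the others. The share of all genes that pass this limit was not computed. Reads of library pairs of one group, compared over genes, gave a chi-square of 4.89 to 19.9 per degree of freedom. Spread beyond counting was thus not limited to the markers. The coefficients of variation describe 4 cultures a group, without a test. In *Emcn* the coefficient of variation was 86.0% among control and 78.9% among TGFβ1FKO cultures, where counting alone gives 19.8% and 21.6%. In *Tie1* it was 43.0% and 73.5%, against 21.7% and 27.7%, and in *Pecam1* 38.6% and 51.5%, against 14.1% and 19.9%. In *Egfl7*, by contrast, the spread of 17.5% and 11.1% was about that of counting, 13.5% and 13.8%. *Flt1* in TGFβ1FKO cultures, at 8.73% against 7.63%, was also close to counting.

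When the values had been seen, the markers were described in 2 sets, divided by the fold between their highest and lowest library. *Pecam1*, *Cldn5*, *Tie1*, *Emcn* and *Sox18* followed each other across the libraries, with a median Pearson r of 0.73 over their 10 pairs and a range of 0.49 to 0.95 (log2 values, 8 libraries). Their summed normalised count was 99.8, 155.1, 205.1 and 53.3 in control replicates 1 to 4 and 36.5, 139.8, 43.2 and 76.4 in TGFβ1FKO replicates 1 to 4, which is 5.62-fold between the highest and the lowest library. The mean sum was 128.3 ± 66.0 in control against 74.0 ± 47.2 in TGFβ1FKO (SD, n = 4 each), and TGFβ1FKO replicate 2 exceeded control replicates 1 and 4. The more abundant *Tek*, *Flt1*, *Kdr* and *Egfl7* made up 85.1% of the counts of the 10 markers and had a median r among themselves of -0.020 over 6 pairs and a range of -0.33 to 0.62. *Egfl7*, placed here for its small spread, went with *Pecam1* about as closely (r 0.76) as *Sox18* (0.75) and *Emcn* (0.73) did, so that the sets do not divide the markers by likeness alone. Their sum differed by only 1.63-fold between libraries, with 668.4, 818.1, 642.0 and 547.1 in control and 634.5, 503.3, 544.7 and 596.1 in TGFβ1FKO replicates 1 to 4. TGFβ1FKO replicate 2 was thus the lowest of all libraries for this sum and the third highest for the other. These correlations describe points that share libraries and depth, and the sets were formed from the same values. *Nos3*, with at most 12 reads in a library, was placed in neither set.

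**Figure D3:**
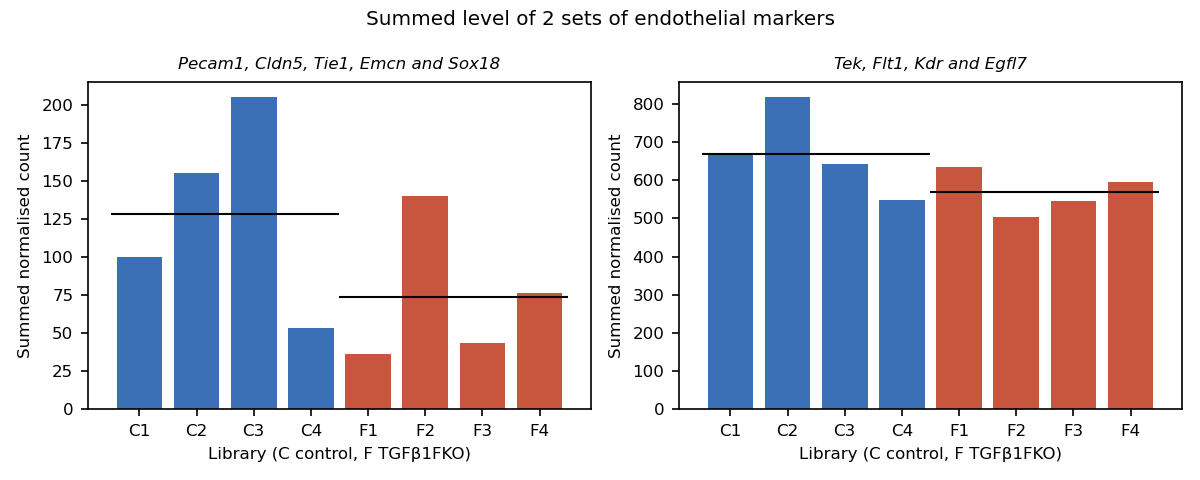
Summed normalised counts (vertical axes from 0) of *Pecam1*, *Cldn5*, *Tie1*, *Emcn* and *Sox18* (left) and of *Tek*, *Flt1*, *Kdr* and *Egfl7* (right) in the control (C1 to C4, blue) and TGFβ1FKO (F1 to F4, red) libraries, with lines at the group means. The left sum varies 5.62-fold and the right sum 1.63-fold between libraries, a contrast that follows from how the sets were formed.

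Over all 10 markers the summed normalised count was 775.98, 986.0, 852.7 and 611.3 in control replicates 1 to 4 and 677.1, 648.3, 592.1 and 676.95 in TGFβ1FKO replicates 1 to 4. Control replicate 4 lay below 3 of the 4 TGFβ1FKO libraries. The mean in TGFβ1FKO was 80.4% of that in control (648.6 ± 40.1 against 806.5 ± 156.4, SD, n = 4), a log2 ratio of -0.31 that is given without a test. With single libraries left out it ranged from -0.43 to -0.20. *Tek*, *Flt1*, *Kdr* and *Egfl7* made up 85.1% of these counts, and which cells the RNA came from was not tested.

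The stretches of sequence before the transcription start are shown for 2 markers of each set. RefSeq sequences (build GRCm38.p6) were found for 7 of the 10 markers, namely *Cldn5*, *Kdr*, *Flt1*, *Tie1*, *Tek*, *Emcn* and *Egfl7*, the last with 3 starts. The 250 bases before the start are printed 5′ to 3′ on the strand of the gene, with capitals at each GGAAG and at CTTCC, the same letters on the other strand. The windows are chr4:118489850-118490099 (minus strand) for *Tie1*, chr16:18776597-18776846 (plus strand) for *Cldn5*, chr5:147726012-147726261 (minus strand) for *Flt1* and chr4:94739039-94739288 (plus strand) for *Tek*. The starts are those of RefSeq, whereas the gene coordinates given above are those of GENCODE. Most of the *Tie1* window lies inside the GENCODE gene, which starts further upstream, at 118490061. The 3 *Egfl7* windows also lie inside the GENCODE gene. These letters hold the core that ETS factors recognise, a family to which the endothelial factors ERG and FLI1 belong.
Tie1: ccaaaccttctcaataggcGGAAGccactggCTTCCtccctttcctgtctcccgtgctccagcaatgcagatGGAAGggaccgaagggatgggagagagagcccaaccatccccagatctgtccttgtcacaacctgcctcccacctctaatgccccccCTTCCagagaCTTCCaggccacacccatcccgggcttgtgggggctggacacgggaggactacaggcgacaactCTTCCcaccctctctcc
Cldn5: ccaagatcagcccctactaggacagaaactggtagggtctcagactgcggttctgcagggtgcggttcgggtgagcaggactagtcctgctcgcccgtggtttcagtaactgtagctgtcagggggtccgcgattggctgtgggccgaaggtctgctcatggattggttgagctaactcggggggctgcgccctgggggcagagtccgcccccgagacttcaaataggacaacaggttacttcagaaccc
Flt1: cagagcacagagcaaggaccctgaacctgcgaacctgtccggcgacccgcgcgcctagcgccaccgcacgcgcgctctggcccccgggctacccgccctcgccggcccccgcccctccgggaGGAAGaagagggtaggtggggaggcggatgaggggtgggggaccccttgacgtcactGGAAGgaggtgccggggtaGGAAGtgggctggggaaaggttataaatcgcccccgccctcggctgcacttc
Tek: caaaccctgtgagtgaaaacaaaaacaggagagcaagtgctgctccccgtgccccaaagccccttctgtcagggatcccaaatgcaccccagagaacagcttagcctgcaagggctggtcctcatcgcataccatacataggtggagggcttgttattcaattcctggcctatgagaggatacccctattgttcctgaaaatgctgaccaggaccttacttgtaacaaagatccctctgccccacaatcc

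The letters occurred 6 times before the RefSeq start of *Tie1* and 0 times before *Cldn5*, both of the set that varied most. They occurred 3 times before *Flt1* and 0 times before *Tek*. Of the other windows, *Emcn* had 2, *Kdr* 1 and *Egfl7* 4, 2 and 0. At least 1 match was found in 64.1% of 32851 such windows of all genes, and each set held windows with and without one. A match describes letters only and is not a binding site.

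Other genes of the endothelial lineage, on a list written by hand, were read beside the markers. Of 26 such genes 21 were in the table, 16 of them lower and 5 higher in TGFβ1FKO, none called, and the median of their log2 fold changes was -0.19. The summed count was 6598 to 7290 in control and 6423 to 7220 in TGFβ1FKO libraries. Most of this sum was *Eng*, so that it says little about the genes of low level. *Calcrl*, an adrenomedullin receptor, was the 1 gene with an unadjusted p under 0.05, and it was higher (419.5 ± 40.6 in control, 525.9 ± 47.9 in TGFβ1FKO, SD, n = 4; log2 fold change 0.33, adjusted p = 0.444, limma). It was also the 1 gene of the 21 whose groups did not overlap (361.5 to 456.3 in control, 478.3 to 588.2 in TGFβ1FKO). Over all genes the groups did not overlap in 3.79%, so that 1 of 21 does not set this list apart. *Cdh5*, which encodes VE-cadherin, had 106.7, 175.3, 208.5 and 93.8 normalised counts in control and 54.7, 117.0, 157.8 and 62.0 in TGFβ1FKO replicates 1 to 4 (log2 fold change -0.63, adjusted p = 0.702, limma). Control replicates 2 and 3 were the highest for *Cdh5*, as they were for *Pecam1*. TGFβ1FKO replicate 3, however, lay above control replicates 1 and 4 for *Cdh5* and was the lowest library for *Pecam1* (16.6). *Eng*, *Cd34*, *Calcrl* and *Clec14a* were the most abundant of the list, with means over all libraries of 4399, 914.7, 472.7 and 265.9 normalised counts, and *Eng* differed by only 1.24-fold between its highest and lowest library.

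The 21 genes were then divided by level, since counting error weighs more on genes with few reads. Among the 10 with a mean of at least 50 normalised counts, the highest library was 1.24-fold to 3.81-fold above the lowest. Among the 11 below 50 it was 3.02-fold to 16.4-fold in the 9 genes without a library at 0. In this lower band TGFβ1FKO replicate 1 was the lowest library in 8 of 11 genes, and control replicate 2 or 3 the highest in 6. In the band of at least 50 these counts were 3 and 4 of 10 genes. Among the 10 markers TGFβ1FKO replicate 1 was the lowest library in 2 and TGFβ1FKO replicate 3 in 4. Such counts were not taken over other genes of low level. *Plvap*, a component of endothelial diaphragms, had 49.9 normalised counts in control replicate 3 and 3.04 in TGFβ1FKO replicate 1. *Erg* had 16.6 normalised counts in control replicate 3 and was listed at 0 in TGFβ1FKO replicate 1.

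**Figure D4:**
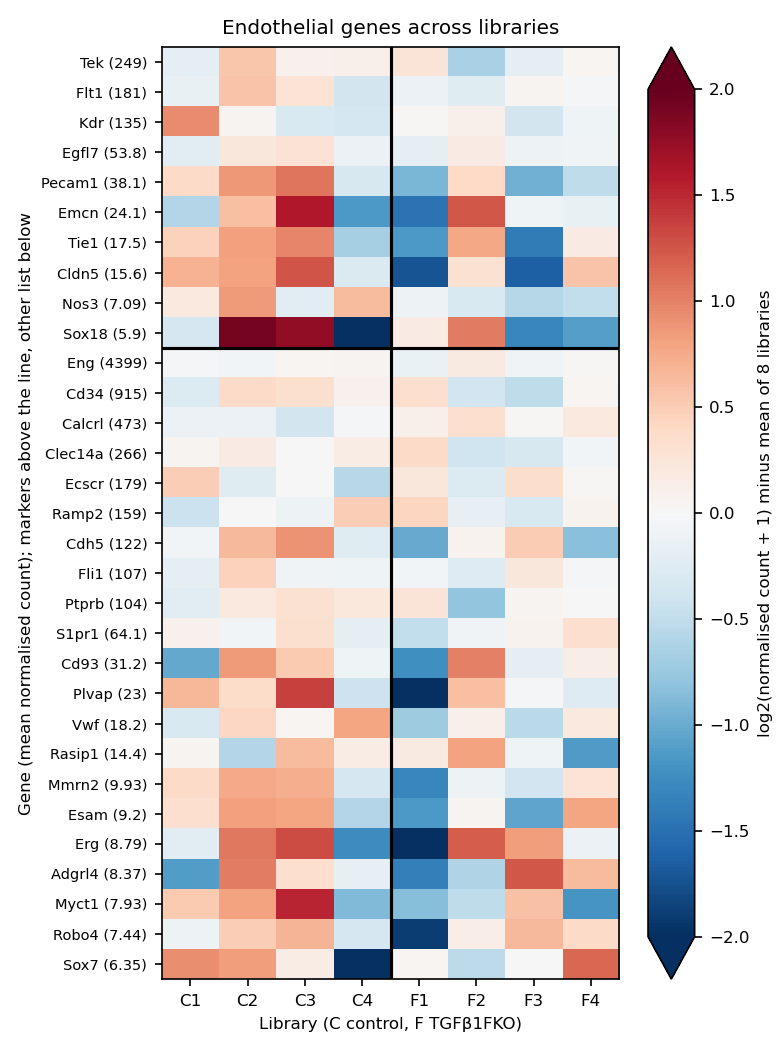
Log2(normalised count + 1) of each gene minus its mean over the 8 libraries (colour, in which differences beyond 2 take the end colour) for the 10 markers above the line and 21 other endothelial genes below it, ordered by mean normalised count, given in brackets. *Eng*, the most abundant gene, varies little. *Plvap* and *Erg*, picked after the values had been seen, are high in control replicate 3 (C3) and low in TGFβ1FKO replicate 1 (F1). Of the 11 other endothelial genes with a mean under 50, control replicate 2 or 3 is highest in 6 and TGFβ1FKO replicate 1 lowest in 8. Of the 10 markers, TGFβ1FKO replicate 1 is lowest in 2 and TGFβ1FKO replicate 3 in 4.

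Genes of specialised vessels were found in part. Of 14 arterial, venous and tip cell genes 6 were in the table, without *Gja4*, *Gja5*, *Dll4*, *Bmx*, *Selp*, *Sele*, *Esm1* and *Aplnr*, and 5 of the 6 were lower. None was called, and *Sema3g* had an unadjusted p under 0.05 (47.4 ± 9.90 in control, 33.6 ± 6.59 in TGFβ1FKO, SD, n = 4; log2 fold change -0.49, adjusted p = 0.658, limma). Of 6 lymphatic genes 5 were in the table, without *Ccl21a*. All 5 were lower and none was called, with sums of 206.4 to 262.8 in control and 173.9 to 247.4 in TGFβ1FKO. Among them *Mmrn1* had 12.0, 13.8, 34.4 and 5.93 normalised counts in control and 0, 12.4, 6.64 and 1.11 in TGFβ1FKO replicates 1 to 4 (unadjusted p = 0.0239, adjusted p = 0.632, limma). *Prox1*, the master regulator of lymphatic identity, had 38.9 ± 10.5 in control and 33.8 ± 20.3 in TGFβ1FKO (SD, n = 4). Most of the lymphatic sum was *Flt4* and *Foxc2*, with means over all libraries of 95.9 and 67.9 normalised counts. These 2 genes were lower by little, with log2 fold changes of only -0.076 and -0.035 in limma.

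The genes whose log2 values went most closely with the mean of the 10 markers over the 8 libraries were sought among the 12777 other genes with a mean of at least 20 normalised counts. The 8 closest were *Calm2* (Pearson r 0.96), *Uqcrh* (0.94), *Ggnbp2* (0.94), *Angpt2* (0.94), *Zfp974* (0.93), *Zc3hc1* (0.93), *Sptssa* (0.89) and *Apln* (0.89). Spearman's rho was between 0.88 and 0.95 for these 8 genes. *Angpt2*, which encodes a ligand of TIE2 stored in endothelial cells, and *Apln*, a peptide gene of endothelial tip cells, are on the lists of endothelial ligands and of tip cell genes. *Angpt2* had 85.2, 108.4, 125.3 and 65.2 normalised counts in control and 51.7, 108.7, 63.9 and 78.7 in TGFβ1FKO replicates 1 to 4. Its order thus resembled that of *Pecam1*, with control replicates 2 and 3 and TGFβ1FKO replicate 2 on top. *Apln* had 41.3, 106.3, 59.9 and 25.7 in control and 22.3, 52.8, 35.7 and 36.6 in TGFβ1FKO. These 8 were picked as the closest of 12777 genes over only 8 libraries, and none of them was called (adjusted p between 0.773 and 0.934, limma).

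The ligands of these receptors were read next. All 8 ligand genes looked for were in the table, 6 lower and 2 higher, and none was called. *Vegfa* had 2171 ± 188.8 normalised counts in control and 2144 ± 99.5 in TGFβ1FKO (SD, n = 4). *Angpt1*, which activates TIE2 (131.8 ± 15.4 in control, 102.3 ± 14.7 in TGFβ1FKO, SD, n = 4; adjusted p = 0.632, limma), and *Pgf*, a ligand of FLT1 (61.0 ± 24.2 in control, 36.8 ± 7.78 in TGFβ1FKO, SD, n = 4; adjusted p = 0.658, limma), had an unadjusted p under 0.05. The 5 co-receptor genes *Nrp1*, *Nrp2*, *Itgb3*, *Itgav* and *Itga5* were all in the table and none was called, their median being 0.10 on the log2 scale.

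Markers of other cells from skin were read in the same libraries. Of 11 Schwann cell markers 10 were in the table, all 10 lower with an unadjusted p under 0.05, and *Sox10* and *Foxd3* were among those called. Their summed count was 1784 to 2667 in control and 945.8 to 1862 in TGFβ1FKO libraries, with the lowest control value again in replicate 4. Most of this sum was *Ngfr* (1446 ± 220.7 in control, 971.2 ± 398.6 in TGFβ1FKO, SD, n = 4), which overlapped between the groups, whereas 7 of the 10 genes did not overlap. *Sox10* had 139.9 ± 55.6 normalised counts in control and 16.5 ± 6.25 in TGFβ1FKO (SD, n = 4). Of 12 macrophage markers 5 were in the table, without the defining *Ptprc*, *Adgre1* and *C1qa* to *C1qc*. Their sum was 563.1 to 652.8 in control and 379.5 to 621.4 in TGFβ1FKO. Of 10 pericyte markers 8 were in the table with none called, and *Cspg4* had an unadjusted p under 0.05 (599.8 ± 184.6 in control, 411.7 ± 65.5 in TGFβ1FKO, SD, n = 4; adjusted p = 0.599, limma). The pericyte sum, 19461 to 22850 in control and 19684 to 21516 in TGFβ1FKO, was mostly *Pdgfrb*, which fibroblasts express too. Of 10 platelet and red cell genes only *Itga2b* and *Gp1ba* were in the table, without any globin of the list, with sums of 62.1 to 95.8 in control and 54.0 to 90.2 in TGFβ1FKO. Of 9 keratinocyte genes 4 were in the table, without *Krt5* and *Krt14*, and *Dsp* and *Trp63* were higher with an unadjusted p under 0.05 and were not called. The keratinocyte sum was 112.7 to 152.1 in control and 147.8 to 172.9 in TGFβ1FKO. Of 6 melanocyte genes 3 were in the table, with sums of 215.1 to 332.8 in control and 219.2 to 308.6 in TGFβ1FKO. The part of these cell types in the endothelial values was not tested.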

How the data were processed

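RNA of primary dermal fibroblasts was sequenced as non-directional poly-A libraries, 4 per genotype, grouped by sample title. Per the labels, the authors used HISAT2 2.0.5 on GRCm38, featureCounts 1.5.0-p3 and DESeq2 1.42.0. The authors removed transcripts with few reads over all samples, and the lowest sum of a listed gene was 41 reads. The deposited values are normalised counts (a signal in library-scaled reads) that include an added 0.5. After subtraction of 0.5, 100% of values in each library were whole multiples of one read's worth (within 0.02 read or, for large values, 1e-05 of the value). The authors' deposited fold changes and p-values were not used. Log2(normalised count + 1) was compared with limma 3.58.1 (R 4.3.3, mean-variance trend, all 8 libraries, no covariate), with Benjamini-Hochberg adjustment over 15111 genes. Each marker was also put to a two-sided exact permutation test (scipy 1.17.1). edgeR 4.0.16 and DESeq2 1.42.0 on recovered reads, TMM scaling, pseudocounts of 0.5 and 5, a minimum of 10 reads in every library, the replicate block and each library left out served as alternatives. The tests were tested on simulated data. Library pairs of one group were not copies (the lowest chi-square over its degrees of freedom was 4.89). GENCODE M21 (GRCm38) gave exon lengths and coordinates and matched 15098 genes. The markers and lists were chosen with earlier results of these data known. Named were all markers, list genes that were called, had an unadjusted p under 0.05 or were most abundant, and the 8 genes most like the markers. *Cdh5*, *Plvap*, *Erg*, the letters GGAAG and the 2 sets of markers were chosen after the values had been seen. Some results are not reported here.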

Additional observations from a re-analysis of the deposited data

Results flagged for a closer look

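Among 46 groups of 4 libraries examined for a library far from the others (Dixon's test at the 95% level), 2 held one, where 2.3 are expected by chance, and no single endothelial marker was among them. TGFβ1FKO replicate 3 had a summed normalised count of 6995 for the 8 receptor ligands, against 7480 to 7534 in the other TGFβ1FKO libraries. Control replicate 4 had 152.1 for the 4 keratinocyte genes, against 112.7 to 116.4 in the other controls, and it was also the control with the fewest endothelial counts.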

How the results depend on the processing

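No marker was called under any of the alternatives run, with the lowest adjusted p of a marker between 0.29 and 0.92 over them. *Pecam1* had an unadjusted p under 0.05 in 14 of 15 alternatives, the exception being the fit without control replicate 3, and *Cldn5* in 7 of 14. One marker each reached this in edgeR's and in DESeq2's test, *Pecam1*. Over all genes 13 were called, against 20 in edgeR's test, 56 in DESeq2's, 31 with the replicate block and 3 with at least 10 reads in every library, a filter under which 12946 genes and 5 of the 10 markers were tested. With single libraries left out, the number of called genes was 5 to 32 (7, 6, 5 and 32 without control replicates 1 to 4, and 5 without TGFβ1FKO replicate 2 or 4), and the number of markers whose groups did not overlap was 0 to 1 (*Nos3* without control replicate 3 or TGFβ1FKO replicate 1, *Cldn5* without control replicate 4, *Pecam1* without TGFβ1FKO replicate 2); the log2 ratio of the summed counts stayed between -0.43 and -0.20, and no marker was called. With a library left out, the share of all genes whose groups did not overlap was not computed. Groups of fewer libraries also fail to overlap more readily, so that 0 to 1 does not set any marker apart. The cause of the differences between these fits was not tested. The log2 fold change of *Kdr* ranged from -0.32 to 0.12 (without control replicate 1), that of *Flt1* from -0.31 to 0.0062 (without control replicate 2), and that of *Emcn* from -0.69 to 0.26 (without control replicate 3), being 0.22 without TGFβ1FKO replicate 1. Replicate numbers are shared by the labels only: deviations of same-numbered libraries correlated at -0.134 to 0.10 across genes, 3 of 8 libraries went best with their own number, and the replicate block called 0 markers. Depth limits *Sox18*, *Nos3* and *Cldn5* most, with 45, 57 and 122 reads in all.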
